A study of Homo sapiens with 8 samples.

Results

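The heat shock proteins and their J protein partners were followed by RNAseq in HEK293T cells, a line derived from human embryonic kidney, after treatment with DZNep. The members were taken by gene symbol alone from the protein-coding genes of the normalized count table. Their GENCODE symbol is HSPA, HSPB, HSPD, HSPE, HSPH or HSP90 followed by letters or digits only, or DNAJA, DNAJB or DNAJC with a number. The readthrough gene HSPE1-MOB4, whose symbol holds a hyphen, is therefore not a member. The rule found 68 of the 19118 genes in that table, 14709 of which are protein-coding. These are 26 heat shock proteins, 40 J proteins and 2 genes that only share the HSPB name, HSPBP1 and HSPBAP1. Another 3 genes with such a name, HSPB2, DNAJB8 and DNAJB13, had too few reads for the normalized table and are not members. All 68 members passed the filter on low counts and were tested.

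The study treated HEK293T cells with 100 µM DZNep, an inhibitor of S-adenosylhomocysteine hydrolase, a methionine cycle enzyme on which methyltransferases depend, or with vehicle (Control) for 48 h. There were 4 Control and 4 DZNep libraries, with replicate numbers 1 to 4 in each group, which the study describes as biological replicates. Neither group carried a genetic change beyond those of the line itself, cells of both groups were grown with serum, and a single line, dose and time were examined. In bulk RNA, fewer cells of a kind and less RNA per cell cannot be told apart.

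Heat shock proteins hold unfolded or partly folded proteins and use cycles of ATP binding and release to let them fold. An HSP70 receives its client from a J protein, which also stimulates its ATPase, and a nucleotide exchange factor such as an HSP110 then resets it. HSP90 acts later on a smaller set of clients, HSP60 with its HSP10 lid encloses proteins of the mitochondrial matrix, and the small heat shock proteins hold clients without ATP. Each compartment has its own set: HSC70 (HSPA8) in the cytosol, BiP (HSPA5) and GRP94 (HSP90B1) in the endoplasmic reticulum (ER), and mortalin (HSPA9) with HSP60 in mitochondria. Many cytosolic and mitochondrial members are induced by heat shock factor 1, and several ER members by the unfolded protein response.

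Library totals ranged from 25043058 to 44902779 counts, and the members together took 0.938% to 1.19% of each library. All 7 markers of HEK293 cells examined were detected. Among markers of other cell types, the T cell, liver, red cell, beta cell and melanocyte genes CD3E, ALB, HBB, INS and TYR had Control means of at most 2.34 normalized counts. PTPRC, PECAM1 and COL1A1, of the same list, were detected, with Control means of 53.7, 163 and 3047. CD3E was 0 in every Control library and had 8.16, 16.9, 15.5 and 40.5 normalized counts in DZNep replicates 1 to 4. In both groups, the share of counts on mitochondrial DNA genes was higher in replicates 1 and 4 (7.76% and 13.7% in Control, 7.04% and 10.1% in DZNep) than in replicates 2 and 3 (3.02% and 3.16% in Control, 4.25% and 4.44% in DZNep). Several members moved with these numbers within a group. Their values in replicates 1 and 4 and in replicates 2 and 3 are therefore given beside the members, and the called genes of other lists, whose call by both thresholds they change, and the part of this share in those results was not tested. Reads counted here were unique, so members with near-identical copies, such as HSPA1A and HSPA1B, or with many processed pseudogenes, such as HSP90AA1, HSPA8, HSPD1 and HSPE1, are measured only by the reads that tell the copies apart.

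DZNep moved J proteins and heat shock proteins in both directions, without a common shift. With an adjusted p under 0.05 and a log2 fold change beyond 1 in either direction, 5 members were upregulated (HSPB3, HSPB7, DNAJC15, DNAJB1 and HSPA2) against a background of 10.6% of the 19171 genes tested. The same thresholds gave 8 downregulated members (HSPA1L, DNAJC2, DNAJC4, DNAJC17, HSPBAP1, DNAJA3, DNAJC28 and DNAJB14), where 13.5% of all genes were called lower. The shares of the members, 7.35% higher and 11.8% lower, were both under these backgrounds. By library sizes alone, the split was 6 higher and 6 lower, and the shares of all genes under that scaling are not given here. The adjusted p values here and below are from edgeR's quasi-likelihood test with Benjamini-Hochberg adjustment over all genes tested.

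At the adjusted p alone, without the fold threshold, 13 members were higher and 14 were lower, and 41 did not pass. The background was 19.1% of all genes higher and 21.8% lower. Counted without a test, the lowest DZNep value exceeded the highest Control value for 17 members (19.5% of all genes), and the highest DZNep value was under the lowest Control value for 9 (19.4% of all genes). The median log2 fold change of the members was 0.00, and that of all genes was -0.03. With the replicate number as a block, 21 members were higher and 22 lower at the adjusted p alone, which added 8 members in each direction. The shares of all genes with the block were not counted at this threshold, so these numbers have no background here. The plot of log2 fold changes by compartment shows where these members lie.

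**Figure D1:**
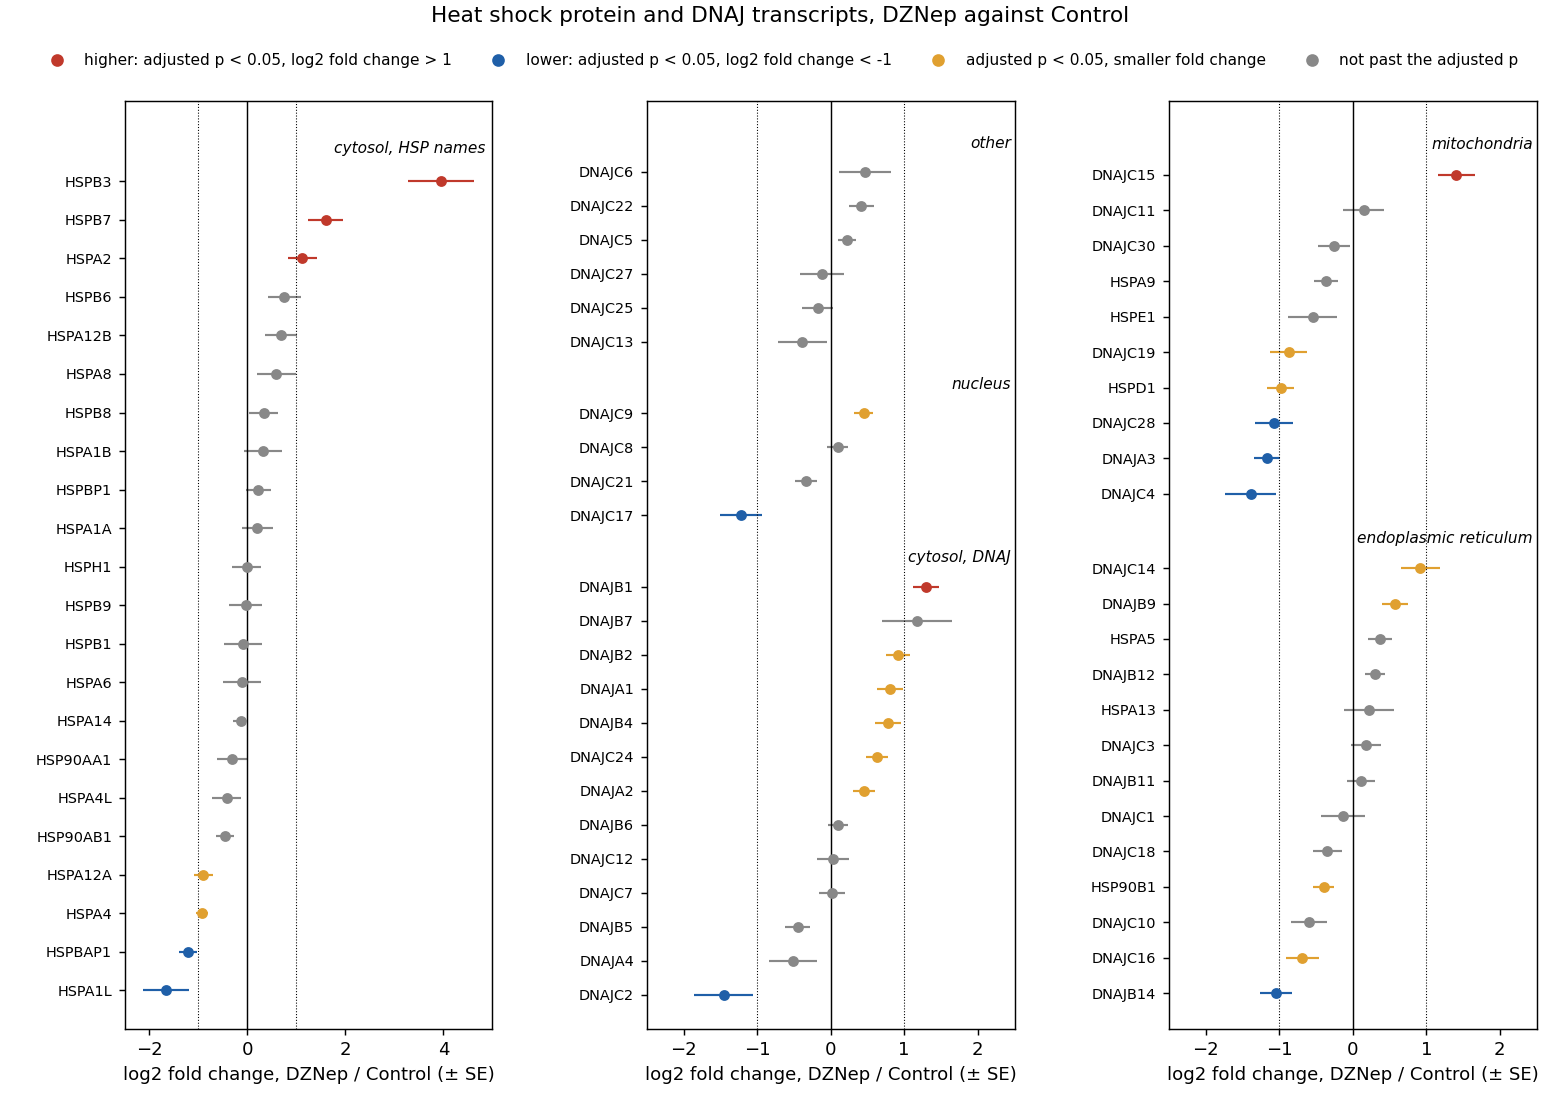
Log2 fold change, DZNep over Control, of the 68 members by compartment (points, bars ± SE of the fit on 4 and 4 libraries; dotted lines at -1 and 1, and the left panel has a wider axis). The 5 red members rose and the 8 blue members fell past both thresholds. Most cytosolic J proteins lie to the right of 0, and 8 of the 10 mitochondrial members lie to the left.

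Among the groups by class and compartment, the cytosolic J proteins had the most members higher at the adjusted p alone. Of 13 members, 6 were higher (46.2%) and 1 was lower (7.69%), where 19.1% and 21.8% of all genes were. For 7 of them (53.8%) all DZNep libraries were above the Control range, which held for 19.5% of all genes. The median log2 fold change of the 13 was 0.45. Whether these shares differ from those of all genes was not tested. Their summed normalized counts were 35339.6, 34638, 34369 and 42049 in the Control replicates 1 to 4 and 52236, 53010.4, 46058 and 55698 in the DZNep replicates, so the groups did not overlap and the means had a ratio of 1.41. A sum weighs the abundant members most, and DNAJA1 and DNAJB1 gave the largest part of the difference.

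DNAJB1 (ENSG00000132002, chr19:14514769-14560391 of GRCh38), known as HSP40 and the main heat-inducible partner of cytosolic HSP70, was upregulated. Its normalized counts were 2775, 4243, 3904 and 4361 in Control and 9400.3, 10734, 8291 and 10007 in DZNep-treated cells. The lowest treated library was well above the highest Control library. The log2 fold change was 1.30 ± 0.18 (SE, adjusted p = 0.000314), from 3821 ± 724 to 9608 ± 1034 (SD, n = 4). It was 1.46 in replicates 1 and 4 alone and 1.19 in replicates 2 and 3 alone.

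DNAJA1 and DNAJA2 are the type A J proteins that serve HSC70 in protein folding and import. DNAJA1 (chr9:33025273-33039907) gave 5715, 8985, 8048 and 9031 normalized counts in Control and 14593, 15599, 12746 and 13923 in DZNep, again with no overlap. It rose by 0.81 ± 0.18 on the log2 scale (adjusted p = 0.00465). DNAJA2 rose less, by 0.45 ± 0.15 (adjusted p = 0.0333), from 4562 ± 634 to 6350.3 ± 516, and all 4 treated libraries were above the Control range. Its adjusted p was over 0.05 when any 1 of 6 libraries was left out, up to 0.100 without Control replicate 1. The heat-inducible DNAJA4 had few reads, 41.3 ± 8.53 in Control and 29.6 ± 10.6 in DZNep, and its log2 fold change of -0.51 ± 0.33 did not pass (adjusted p = 0.239).

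DNAJB2 (HSJ1), a J protein with ubiquitin-binding motifs that hands clients to the proteasome, had 2252, 1430.2, 1845 and 1722 normalized counts in Control and 3491, 3236, 3252 and 3988 in DZNep. Each treated library was above each Control library, and the log2 fold change was 0.92 ± 0.16 (adjusted p = 0.0015), just under the fold threshold. DNAJB4, another heat-inducible type B J protein, rose by 0.78 ± 0.18 (adjusted p = 0.00559), from 814 ± 171 to 1426 ± 157. DNAJC24 (DPH4), which acts in the synthesis of diphthamide on elongation factor EF2 rather than in bulk folding, rose by 0.63 ± 0.15 (adjusted p = 0.0082).

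DNAJC2 (MPP11, chr7:103312289-103344830), the J protein that sits on the ribosome and meets nascent chains, was the cytosolic J protein called lower. Its counts were 4623, 1599.9, 1837 and 5183 in Control and 1163, 971, 921 and 1876 in DZNep. Control replicates 1 and 4 were far above replicates 2 and 3, and DZNep replicate 4 exceeded both of the latter, so the groups overlapped. The log2 fold change was -1.45 ± 0.40 (adjusted p = 0.0154), with -1.68 in replicates 1 and 4 and -0.90 in replicates 2 and 3, and without DZNep replicate 3 the adjusted p was 0.0505. Exons of PMPCB on the opposite strand cover 20.9% of its exon bases, and reads of the pair cannot be told apart without strand. HSPA14, its HSP70 partner on the ribosome, had 2911 ± 419 and 2699 ± 358 normalized counts and did not pass (-0.14 ± 0.16, adjusted p = 0.524). The testis J protein DNAJB7 was barely expressed, with 9.25, 6.25, 1.79 and 9.67 against 20.9, 15.3, 13.0 and 11.2 normalized counts. All treated libraries were higher, and it was not called (log2 fold change 1.18 ± 0.48, adjusted p = 0.0722), though it was with the block (adjusted p = 0.0412), by library sizes alone (adjusted p = 0.0451) and in replicates 2 and 3 alone (adjusted p = 0.0434). Exons of XPNPEP3 on the opposite strand cover 23.9% of the exon bases of DNAJB7, so its few reads are uncertain without strand.

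**Figure D2:**
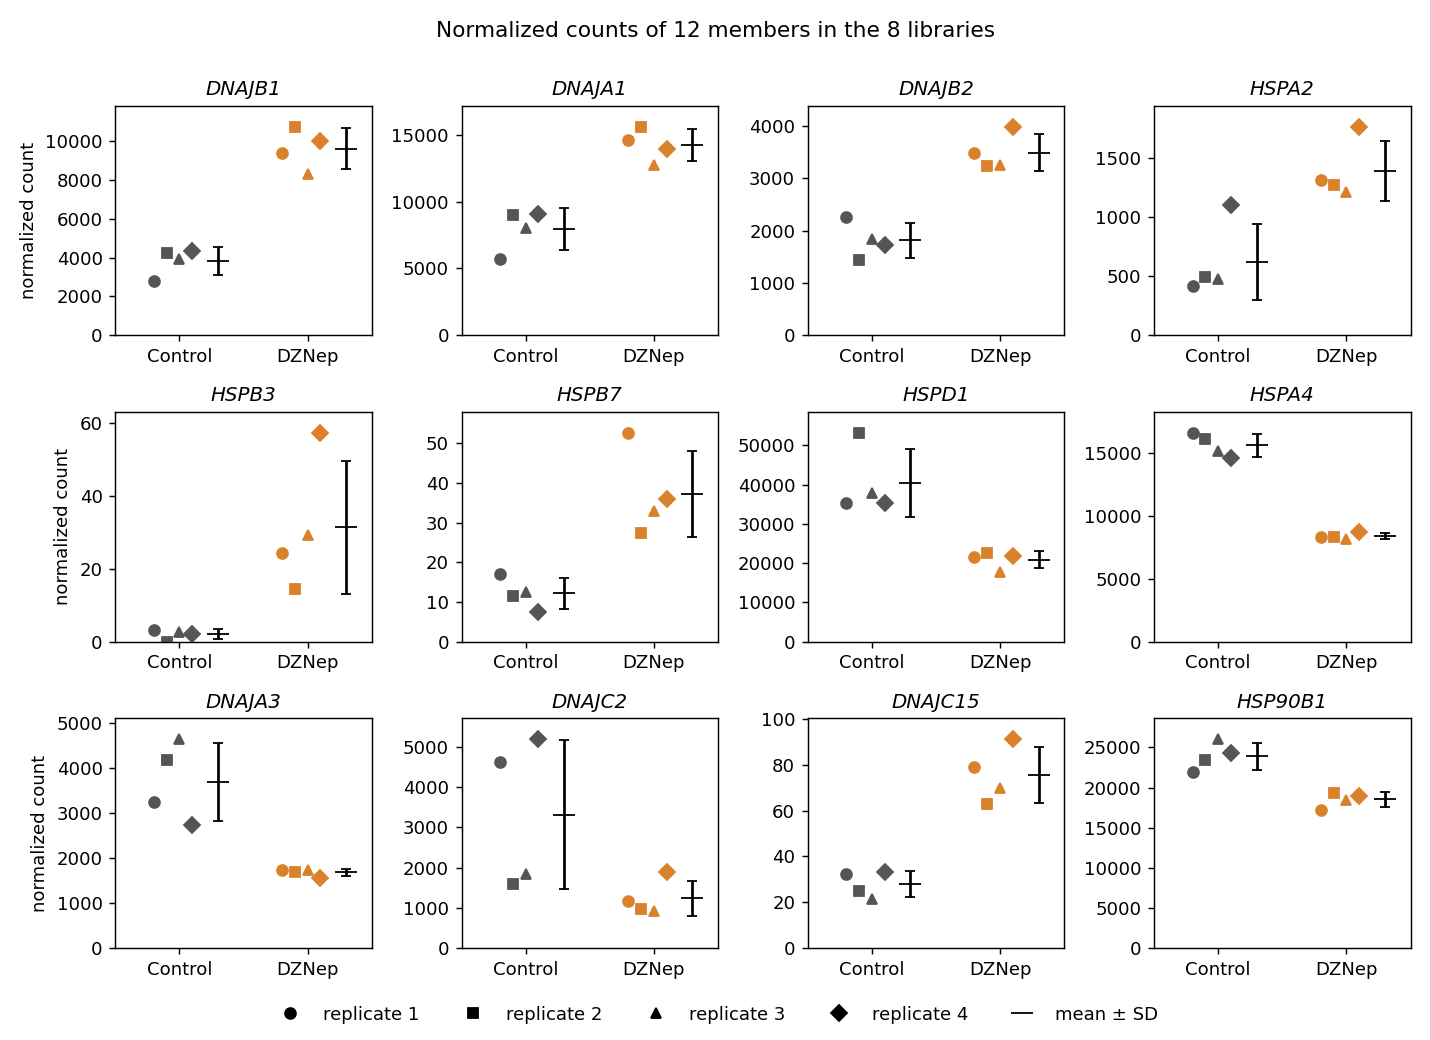
Normalized counts of 12 members in each library (y axis from 0, a scale for each gene; symbols give the replicate number, and the bar at the right of each group is the mean ± SD of 4 libraries). DNAJB1, DNAJA1, DNAJB2, HSPB3, HSPB7, DNAJC15 and HSPA2 show all DZNep libraries above all Control libraries, and HSPD1, HSPA4, DNAJA3 and HSP90B1 show all below. The Control values of DNAJC2 form a low and a high pair.

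The cytosolic HSP70s did not move together. HSC70 itself, HSPA8, which helps new cytosolic proteins fold and strips clathrin coats, had 6863, 25129, 20159 and 9670.2 normalized counts in Control and 22757, 33560.1, 23406 and 15009.6 in DZNep. Every replicate pair was higher with DZNep, but Control replicates 1 and 4 were lower than any treated library, while replicates 2 and 3 lay inside the treated range. The log2 fold change of 0.59 ± 0.40 did not pass (adjusted p = 0.264, and 0.00482 with the block). It was 1.21 in replicates 1 and 4, where it passed both thresholds, and 0.29 in replicates 2 and 3.

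HSPA1A and HSPA1B, the stress-inducible HSP70 pair, code for nearly the same protein from neighbouring genes, and the split of reads between them is uncertain. HSPA1B held most of the reads, with 3931, 8404, 6441 and 14341 normalized counts in Control and 7749, 12192, 6895 and 15420.3 in DZNep. Both groups spanned a wide range and overlapped, and replicate 4 was the highest in both. Its log2 fold change was 0.32 ± 0.38 (adjusted p = 0.537, and 0.0284 with the block), and that of HSPA1A was 0.21 ± 0.32 (adjusted p = 0.643). HSPA6, which is nearly silent without stress, was low in both groups, with 17.0, 17.9, 7.17 and 24.7 normalized counts in Control and 16.3, 16.1, 12.1 and 18.0 in DZNep (-0.11 ± 0.39, adjusted p = 0.837). The signs of HSPA1A and HSPA6 turned under other settings.

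HSPA2 (chr14:64535905-64546173) and HSPA1L (chr6:31809619-31815283), both known best from the male germ line, were the cytosolic HSP70s called, in opposite directions. HSPA2 rose from 418, 496, 477 and 1102 normalized counts in Control to 1311, 1268, 1208 and 1763 in DZNep. Control replicate 4 stood apart from its group but still lay under the treated libraries. The log2 fold change was 1.12 ± 0.30 (adjusted p = 0.0133), and it fell just under the fold threshold without Control replicate 1 (0.96) or without DZNep replicate 4 (0.996). HSPA1L was low throughout, with 40.1, 30.4, 20.6 and 43.0 in Control and 20.9, 10.5, 5.18 and 5.62 in DZNep, and DZNep replicate 1 overlapped the lowest Control library. Its log2 fold change was -1.66 ± 0.47 (adjusted p = 0.0174, and 0.0552 without DZNep replicate 3). HSPA1L starts 260 bases from HSPA1A and is read in the opposite direction.

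The distant relatives HSPA12A and HSPA12B gave fold changes of opposite sign. HSPA12A fell, with a log2 fold change of -0.90 ± 0.20 (adjusted p = 0.00496), from 826, 1412, 1109 and 1106 to 589, 652, 727 and 465 normalized counts, with no overlap. HSPA12B, known from endothelium, had 28.9 ± 7.81 and 47.7 ± 16.4 normalized counts and did not pass (0.68 ± 0.33, adjusted p = 0.124).

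**Figure D3:**
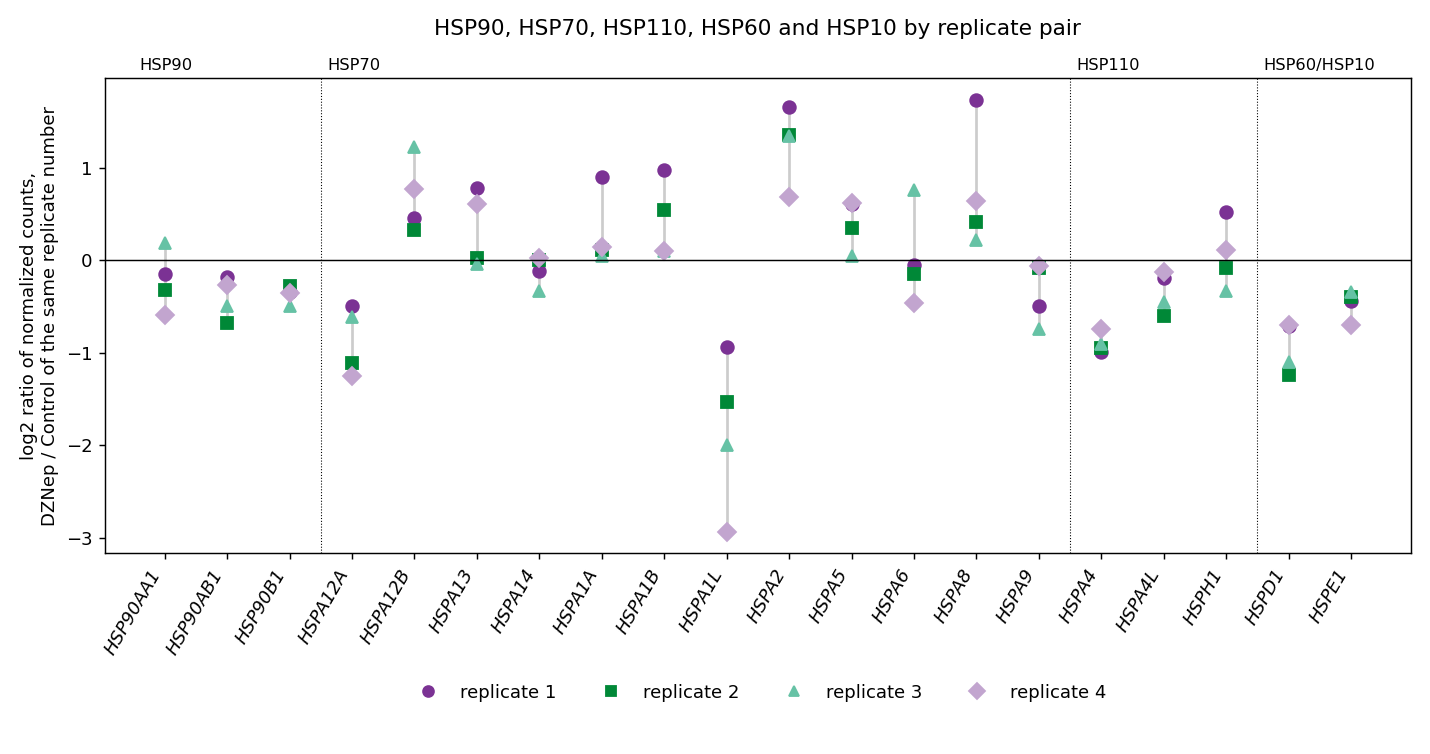
Log2 ratio of normalized counts, DZNep over Control of the same replicate number, for the 20 HSP90, HSP70, HSP110, HSP60 and HSP10 members (4 points a gene, joined by a grey line). All 4 ratios are above 0 for HSPA2, HSPA8, HSPA5, HSPA1A, HSPA1B and HSPA12B, and all are below 0 for HSP90AB1, HSP90B1, HSPA12A, HSPA1L, HSPA9, HSPA4, HSPA4L, HSPD1 and HSPE1.

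Of the HSP110s, which are nucleotide exchange factors of HSP70, HSPA4 was lower and the others did not pass. HSPA4 (Apg-2, chr5:133052013-133106449), the most abundant HSP110, fell from 16626, 16125, 15201 and 14595 normalized counts in Control to 8355, 8335, 8143 and 8736 in DZNep. The spread within each group was small beside the gap between them, and the log2 fold change was -0.92 ± 0.13 (adjusted p = 0.00038), near the fold threshold. HSPA4L had 2326, 4732, 3232 and 1847 against 2033, 3112, 2369 and 1694 normalized counts, lower with DZNep in each pair, and did not pass but did with the block (-0.42 ± 0.29, adjusted p = 0.273, and 0.0139 with the block). HSPH1 (HSP105) had overlapping values, 4234 ± 1793 and 4263 ± 1375, and a log2 fold change of -0.02 ± 0.30 (adjusted p = 0.971) whose sign turned under other settings. The summed counts of the 3 HSP110s had a ratio of 0.65 between the group means, and HSPA4 gave most of the difference. HSPBP1, an exchange factor that is no small heat shock protein despite its symbol, had 2427 ± 855 and 2896 ± 779.6 normalized counts (0.23 ± 0.26, adjusted p = 0.524).

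The cytosolic HSP90AA1 and HSP90AB1 were the most abundant transcripts of all members, and no HSP90 passed both thresholds. HSP90AA1, the inducible cytosolic form, had 79044, 81898, 49977 and 140107 normalized counts in Control and 71368, 65697, 56999.7 and 93210.1 in DZNep. Control replicate 4 was the highest and Control replicate 3 the lowest of the 8, so the treated values lay inside the Control range (-0.32 ± 0.30, adjusted p = 0.43). HSP90AB1, the constitutive cytosolic form, had 44423, 68799, 49663 and 52850.3 against 39125, 42983, 35306 and 43912. All treated libraries were below all Control libraries, and the log2 fold change of -0.45 ± 0.18 did not pass but did with the block (adjusted p = 0.077, and 0.00684 with the block).

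Heat shock elements, the inverted repeats to which heat shock factor 1 binds, were looked for in the RefSeq promoters of the members (250 bases before to 50 after each start, GRCh38.p14). The letters searched on both strands were TTC, any 2 bases, GAA, any 2 bases and TTC. They occur in 172 of 35116 promoters (0.490%), which is 0.608% of 27305 symbols, and in 7 of the 63 members with a promoter entry (11.1%). Those 7 are HSPA8, HSP90AA1, HSP90AB1, HSPD1, HSPA6, DNAJB6 and DNAJA1, where the match lies just after the start. The matches before the start are printed 5′ to 3′ on the strand of the gene, with the matched letters in capitals.
HSPA8, nearer match (chr11:123062159-123062211, minus strand): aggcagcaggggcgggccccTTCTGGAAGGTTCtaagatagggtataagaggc
HSPA8, farther match (chr11:123062334-123062386, minus strand): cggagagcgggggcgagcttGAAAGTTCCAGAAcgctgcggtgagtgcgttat
HSP90AA1 (chr14:102087100-102087152, minus strand): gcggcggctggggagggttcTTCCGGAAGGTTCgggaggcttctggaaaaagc
HSP90AB1, farther match (chr6:44247758-44247810, plus strand): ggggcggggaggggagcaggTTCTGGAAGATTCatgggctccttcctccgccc
HSP90AB1, nearer match (chr6:44247811-44247863, plus strand): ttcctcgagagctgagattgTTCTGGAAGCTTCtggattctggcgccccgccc
HSPD1, overlapping matches (chr2:197500048-197500090, minus strand): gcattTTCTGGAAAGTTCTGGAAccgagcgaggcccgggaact
HSPA6 (chr1:161524446-161524498, plus strand): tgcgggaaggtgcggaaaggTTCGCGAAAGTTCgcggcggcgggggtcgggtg
DNAJB6 (chr7:157336853-157336905, plus strand): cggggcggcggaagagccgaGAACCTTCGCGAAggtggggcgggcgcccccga

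The log2 fold changes of these members were 0.59 for HSPA8, -0.32 for HSP90AA1, -0.45 for HSP90AB1, -0.98 for HSPD1, -0.11 for HSPA6, 0.10 for DNAJB6 and 0.81 for DNAJA1. Only DNAJA1 (higher) and HSPD1 (lower) passed the adjusted p, so promoters with these letters were found on both sides. DNAJB1, the cytosolic J protein called higher, held no match in its window, which says only that these letters are not there. A match is a description of the sequence and not a measured binding site, and its part in these fold changes was not tested.

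Among the 6 small heat shock proteins, 2 muscle genes with very low counts were upregulated, where 10.6% of all genes were, and the most abundant member did not pass. HSPB3 (chr5:54455699-54456377) had 2, 0, 3 and 2 reads in Control replicates 1 to 4 and 27, 18, 34 and 51 in DZNep, so it went from the edge of detection to a low level in all 4 treated libraries. The fitted log2 fold change was 3.95 ± 0.67 (adjusted p = 0.00114), and the ratio of depth-scaled counts was 16.1 (exact conditional 95% interval 7.61 to 40.9, for counting error only). HSPB7 (chr1:16014028-16019594), known from heart and skeletal muscle, had 17.0, 11.6, 12.5 and 7.52 normalized counts in Control and 52.6, 27.4, 32.8 and 36.0 in DZNep, with no overlap and a log2 fold change of 1.60 ± 0.35 (adjusted p = 0.00475).

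HSPB1 (HSP27), by far the most abundant small heat shock protein, had 6581, 2744, 3202 and 8833 normalized counts in Control and 5038, 3317, 4465 and 7723 in DZNep. Its values followed the replicate number, with replicates 1 and 4 the highest in both groups, and its log2 fold change was -0.09 ± 0.38 (adjusted p = 0.877), -0.26 in replicates 1 and 4 and 0.35 in replicates 2 and 3. HSPB6 (HSP20) did not pass but did with the block (0.76 ± 0.34, adjusted p = 0.100, and 0.00771 with the block), and it passed both thresholds in replicates 2 and 3 alone (1.03) and without Control replicate 1 (1.13), and 38.3% of its exon bases lie under a long non-coding RNA on the opposite strand. HSPB8, the partner of BAG3 in the clearance of aggregates, had 157 ± 64.7 and 201 ± 37.6 normalized counts (0.34 ± 0.30, adjusted p = 0.402). HSPBAP1 (chr3:122739999-122793831), a protein that binds HSPB1 and is no heat shock protein itself, fell from 321, 261, 379 and 315 to 128, 121, 155 and 159.7 normalized counts, a log2 fold change of -1.21 ± 0.18 (adjusted p = 0.000582).

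In the ER, 2 of 13 members were higher and 3 lower at the adjusted p alone. These shares, 15.4% and 23.1%, were near those of all genes, 19.1% and 21.8%. The summed counts of the 13 were level, with a ratio of 1.02. The chaperone pair of the lumen went in opposite directions by small amounts. BiP (HSPA5) had 17554, 18817, 24679 and 18885 normalized counts in Control and 26793, 23889.7, 25521 and 28915 in DZNep. Control replicate 3 lay among the treated libraries, and the log2 fold change of 0.37 ± 0.16 did not pass but did with the block (adjusted p = 0.1000, and 0.0179 with the block). GRP94 (HSP90B1) fell from 21945, 23424, 26006 and 24283 to 17242, 19379, 18420.1 and 19006 normalized counts, with no overlap (-0.40 ± 0.14, adjusted p = 0.0439). That p is close to the threshold, and it was between 0.0533 and 0.161 when any 1 library was left out.

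HSPA5 and HSP90B1 were also the only members whose promoters held the letters of the ER stress element, CCAAT, any 9 bases and CCACG on either strand, which occur in 27 of 35116 promoters (0.0769%). Both are textbook targets of the unfolded protein response. Their matches are shown in capitals. The log2 fold changes of the pair differed in sign, but that of HSPA5 did not pass. The part of the element in these values was not tested.
HSPA5 (chr9:125241371-125241429, minus strand): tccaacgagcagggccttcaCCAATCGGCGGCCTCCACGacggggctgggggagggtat
HSP90B1, farther match (chr12:103930196-103930254, plus strand): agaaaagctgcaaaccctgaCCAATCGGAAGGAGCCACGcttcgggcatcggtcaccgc
HSP90B1, nearer match, reverse (chr12:103930301-103930359, plus strand): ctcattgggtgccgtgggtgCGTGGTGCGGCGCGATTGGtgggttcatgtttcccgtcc

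Among the J proteins of the ER, DNAJB9 (ERdj4), a BiP cofactor that is itself induced by the unfolded protein response, had 601, 597, 759 and 422 normalized counts in Control and 868, 946, 877 and 906 in DZNep. All treated libraries were higher, and the log2 fold change was 0.57 ± 0.18 (adjusted p = 0.0261); leaving out 1 of 4 libraries took the adjusted p over 0.05, up to 0.0631 without DZNep replicate 2. The other luminal cofactors DNAJB11 (0.11 ± 0.19, adjusted p = 0.679) and DNAJC3 (0.18 ± 0.20, adjusted p = 0.52) did not pass, and DNAJC10, the disulfide reductase ERdj5, did not pass but did with the block (-0.60 ± 0.24, adjusted p = 0.0765, and 0.00100 with the block).

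The J proteins of the ER membrane went both ways. DNAJB14 (chr4:99896248-99946618), which faces the cytosol, was downregulated from 1047, 1656, 1637 and 1027 to 619, 796, 719 and 521 normalized counts. The groups did not overlap, and the log2 fold change was -1.04 ± 0.21 (adjusted p = 0.00333); it came to between -0.99 and -0.93, under the fold threshold, without Control replicate 2 or 3 or without DZNep replicate 1 or 4. It was also under the threshold in replicates 1 and 4 alone (-0.84, against -1.16 in replicates 2 and 3) and by library sizes alone (-0.97). Its close relative DNAJB12 was above the Control range in all treated libraries, from 2422 ± 247 to 3033 ± 252 normalized counts, and did not pass but did with the block (0.30 ± 0.14, adjusted p = 0.107, and 0.0302 with the block). DNAJC16 was lower (-0.69 ± 0.23, adjusted p = 0.0337, and 0.0696 to 0.114 without 1 of 4 libraries). DNAJC14 was higher (0.92 ± 0.26, adjusted p = 0.0176, and 0.0547 without DZNep replicate 2), with 544, 1318, 1023 and 762 against 1609.8, 2183, 1860.4 and 1380.4 normalized counts. It passed both thresholds in replicates 1 and 4 alone (1.21, against 0.75 in replicates 2 and 3). Another coding gene on the same strand shares 23.2% of the exon bases of DNAJC14, and ORMDL2 on the opposite strand another 22.0%.

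Of the 10 mitochondrial members, 5 were lower and 1 was higher at the adjusted p alone, 7 and 1 with the block, and their median log2 fold change was -0.71. Without the block, 21.8% of all genes were lower and 19.1% higher at the adjusted p alone, and the shares with the block were not counted. The summed normalized counts of the 10 were 75796, 91189.7, 77549 and 78449.8 in Control and 49863, 54619.6, 41591 and 55656 in DZNep, a ratio of 0.62 between the means with a wide gap between the groups. HSPD1 alone, from 40407 ± 8577 to 20865 ± 2210 (SD, n = 4), gave the largest part of this difference. Whether the mitochondrial members differ from those of the other compartments was not tested. The share of counts on mitochondrial DNA genes, which gives a different set of transcripts, did not separate the treatments (7.76%, 3.02%, 3.16% and 13.7% in Control replicates 1 to 4, and 7.04%, 4.25%, 4.44% and 10.1% in DZNep).

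HSP60 (HSPD1, chr2:197486584-197516737), the chaperonin of the matrix, had 35249, 53145, 37868 and 35366 normalized counts in Control and 21504, 22574, 17621 and 21761 in DZNep. Even the highest treated library was far below the lowest Control library, and the log2 fold change was -0.98 ± 0.19 (adjusted p = 0.00213), close to the fold threshold and past it without Control replicate 1, 3 or 4 or DZNep replicate 2 (between -1.05 and -1.01). It was -0.69 in replicates 1 and 4 and -1.21, past the threshold, in replicates 2 and 3. HSP10 (HSPE1), its lid, is transcribed from the same promoter region in the other direction. Its values were 6957, 6074, 4258 and 12201 in Control and 5144, 4607, 3352 and 7518 in DZNep. HSPE1 was lower in each replicate pair, but the spread between numbers was wider than the difference, and it did not pass but did with the block (-0.55 ± 0.33, adjusted p = 0.215, and 0.00169 with the block). Mortalin (HSPA9), the HSP70 of the matrix and of the import motor, had 24061, 22234, 25326 and 20943 and 17110.1, 20976, 15080.2 and 19987 normalized counts and likewise did not pass but did with the block (-0.37 ± 0.16, adjusted p = 0.0935, and 0.024 with the block).

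Of the J proteins of mitochondria, DNAJA3, DNAJC4 and DNAJC28 were called lower and DNAJC15 higher. DNAJA3 (TID1, chr16:4425805-4456775), the main J protein of mortalin in the matrix, fell from 3245, 4175, 4637 and 2731 to 1730.4, 1686, 1744 and 1555 normalized counts. The treated libraries lay close together, all under the lowest Control, and the log2 fold change was -1.17 ± 0.18 (adjusted p = 0.000621). It was -0.84 in replicates 1 and 4, under the fold threshold, and -1.40 in replicates 2 and 3. DNAJC4 (chr11:64230278-64234286), listed with mitochondria but little studied, had 1386, 582, 853 and 1773 in Control and 456, 308, 394 and 630.0 in DZNep, where replicate 4 lay above the lowest Control value (-1.39 ± 0.34, adjusted p = 0.00885). It shares 10.6% of its exon bases with NUDT22 on the same strand, and its log2 fold change was -1.53 in replicates 1 and 4 and -1.07 in replicates 2 and 3.

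DNAJC28 (chr21:33488055-33491716) was low, with 123, 69.6, 80.6 and 115 normalized counts in Control and 40.8, 45.1, 57.0 and 45.0 in DZNep. It was called lower (-1.07 ± 0.26, adjusted p = 0.00769), but only -0.59 in replicates 2 and 3 against -1.45 in replicates 1 and 4, and it was under the fold threshold without Control replicate 1 or 4 or DZNep replicate 1 (between -0.98 and -0.95) and by library sizes alone (-0.96). DNAJC19 (TIM14), the J protein of the import motor, was lower at the adjusted p alone (3077, 1915, 1919.7 and 3609.8 against 1485, 1281, 1143 and 1968 normalized counts, -0.87 ± 0.25, adjusted p = 0.0191), and its adjusted p was 0.0509 to 0.0610 without 1 of 4 libraries. DNAJC15 (MCJ, chr13:43023203-43114213), the relative of DNAJC19 that restrains respiration, rose instead, from 32.4, 25.0, 21.5 and 33.3 to 78.9, 62.8, 70.0 and 91.1 normalized counts. All treated libraries were well above all Control libraries, and the log2 fold change was 1.41 ± 0.25 (adjusted p = 0.00161), at a level that was a small share of that of DNAJC19 in both groups.

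Of the 4 nuclear J proteins, DNAJC17 (chr15:40765161-40807478), which works with the spliceosome, was downregulated, with 1224, 476, 717 and 1084 normalized counts in Control and 391, 336, 316 and 493 in DZNep. The highest treated value was just above the lowest Control value (-1.22 ± 0.29, adjusted p = 0.00678). The log2 fold change was -1.37 in replicates 1 and 4 and -0.91, under the threshold, in replicates 2 and 3, and exons of GCHFR on the opposite strand cover 20.4% of its exon bases. DNAJC9, a co-chaperone of histones H3 and H4, was higher (1748 ± 88.8 to 2429 ± 221, 0.45 ± 0.13, adjusted p = 0.018, and 0.0573 or 0.0582 without replicate 1 of either group). FAM149B1 on the opposite strand covers 56.5% of the exon bases of DNAJC9. DNAJC8, the most abundant of them, did not pass (0.10 ± 0.14, adjusted p = 0.619), and DNAJC21, a factor of ribosome biogenesis, did not pass but did with the block (-0.34 ± 0.15, adjusted p = 0.102, and 0.0198 with the block).

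Among the 6 J proteins of vesicles, endosomes and other membranes, none passed. Cysteine string protein DNAJC5, the most abundant, had 0.22 ± 0.12 (adjusted p = 0.189). Auxilin DNAJC6, which uncoats clathrin vesicles with HSC70, had the highest log2 fold change (0.46 ± 0.36, adjusted p = 0.326, and 0.00353 with the block), and the endosomal DNAJC13 the lowest (-0.38 ± 0.33, adjusted p = 0.388). DNAJC22 did not pass but did with the block (0.42 ± 0.18, adjusted p = 0.0835, and 0.0217 with the block).

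Read by inducer instead of compartment, the 15 heat-inducible members showed no common direction. DNAJB1, DNAJA1 and DNAJB4 were higher and HSPD1 was lower at the adjusted p alone. The background for this paragraph was 19.1% of all genes higher and 21.8% lower at that threshold. The median log2 fold change of the 15 was -0.09. The 7 members induced by ER stress had 1 higher (DNAJB9) and 1 lower (HSP90B1), with a median of 0.18. Of the 4 genes listed as heat shock factors, HSF1 and the factor-binding protein HSBP1 did not pass. HSF2 did not pass but did with the block (0.37 ± 0.15, adjusted p = 0.0725, and 0.0154 with the block), and all its treated libraries were above all Control libraries. HSF4, known best from the lens, fell from 57.0, 40.2, 56.4 and 65.5 to 9.07, 16.1, 16.4 and 13.5 normalized counts (-2.01 ± 0.30, adjusted p = 0.000582).

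Heat-inducible genes with other names gave 1 called gene in 13, which was higher. Over all genes, 10.6% were called higher and 13.5% lower, and these backgrounds hold for the lists below too. The called gene was BAG3, an exchange factor of HSP70 and partner of HSPB8 in selective autophagy, with 1494, 1715, 1551 and 1880.1 normalized counts in Control and 3680.3, 3356, 3309.7 and 4597 in DZNep. Its groups stood apart (1.14 ± 0.16, adjusted p = 0.000313, and 0.99 in replicates 2 and 3 alone, just under the fold threshold). ZFAND2A (0.91 ± 0.27, adjusted p = 0.0194) and the haem oxygenase HMOX1 (0.85 ± 0.28, adjusted p = 0.0331) were among those higher at the adjusted p alone, and none of the 13 was lower.

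Of 17 cytosolic co-chaperones none passed both thresholds. At the adjusted p alone the BAG-domain genes BAG5 (0.96 ± 0.22, adjusted p = 0.00552), BAG4 (0.58 ± 0.15, adjusted p = 0.0131) and BAG1 (0.54 ± 0.13, adjusted p = 0.00857) and the myosin chaperone UNC45A (0.60 ± 0.13, adjusted p = 0.00495) were higher. The HSP90 cofactor PTGES3 (-0.75 ± 0.22, adjusted p = 0.0215) and SGTA (-0.57 ± 0.19, adjusted p = 0.033) were lower. Of 14 subunits of TRiC and prefoldin, the prefoldin subunit PFDN6 was called lower (-1.45 ± 0.43, adjusted p = 0.0212), with 5076, 2130.2, 2242 and 7553 normalized counts in Control and 1554, 1189.6, 1091 and 2532 in DZNep, and leaving out any of 4 libraries took its adjusted p to between 0.0509 and 0.0659. Its log2 fold change was -0.98, under the fold threshold, in replicates 2 and 3 alone. VBP1 was higher at the adjusted p alone (0.45 ± 0.16, adjusted p = 0.0468).

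Of 24 other genes of ER folding and the unfolded protein response, SIL1, the exchange factor of BiP, was called lower (1793, 1243, 1295 and 1561 against 730.1, 591, 611 and 894 normalized counts, -1.09 ± 0.18, adjusted p = 0.0011, and -0.99 without Control replicate 1). The lectin chaperone CALR (0.74 ± 0.20, adjusted p = 0.0144) and DERL2 (0.67 ± 0.16, adjusted p = 0.00853) were higher at the adjusted p alone. XBP1 (-0.82 ± 0.24, adjusted p = 0.0191), CRELD2 (-0.61 ± 0.19, adjusted p = 0.0284), PDIA4 (-0.38 ± 0.14, adjusted p = 0.0467) and the J-domain protein SEC63 (-0.53 ± 0.13, adjusted p = 0.00832) were lower.

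Of 13 other genes of mitochondrial protein homeostasis, the inner membrane protease subunit AFG3L2 was called lower (2206, 3925, 3261 and 1778 against 1331, 1431, 1391 and 1068 normalized counts, -1.12 ± 0.24, adjusted p = 0.00425, -0.92 without Control replicate 2 and -0.71 in replicates 1 and 4 alone). TRAP1, the HSP90 of mitochondria, which its symbol leaves outside the members, was lower at the adjusted p alone, with 8619, 10801, 10766 and 7524 normalized counts in Control and 5226, 5466, 4881 and 5623 in DZNep (-0.86 ± 0.16, adjusted p = 0.00181). All its treated libraries were below all Control libraries. The matrix protease LONP1 was also lower (-0.49 ± 0.13, adjusted p = 0.013), and GRPEL2, an exchange factor of mortalin, was higher (0.72 ± 0.20, adjusted p = 0.016). Over all 85 genes of these 6 lists, 1 was called higher and 4 lower, 2 and 4 by library sizes alone. At the adjusted p alone, 12 were higher and 12 lower, and the median log2 fold change of the 85 was 0.00. The backgrounds over all genes were 10.6% higher and 13.5% lower by both thresholds, and 19.1% and 21.8% at the adjusted p alone.

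The level of each member, given as normalized counts per kilobase of its canonical transcript so that genes can be compared, spanned a wide range. In Control, HSP90AA1 (27186 ± 11699), HSP90AB1 (21109 ± 4110.2), HSPD1 (17999 ± 3821) and HSPE1 (13236 ± 6121) were highest, and neighbours in this order did not differ beyond their SDs. With DZNep the order was HSP90AA1 (22249 ± 4782), HSP90AB1 (15785 ± 1542), HSPA8 (10461 ± 3361), HSPD1 (9294 ± 984) and HSPE1 (9256 ± 3133). DNAJB1 moved from rank 18 (1704 ± 323) to rank 11 (4285 ± 461), while HSPA4 moved from rank 14 (3275 ± 191) to rank 19 (1758 ± 52.0). At the low end, 15 members were under 100 per kilobase in Control, among them HSPB3, HSPB7, DNAJC15, HSPA1L and DNAJC28 of the 13 called.

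**Figure D4:**
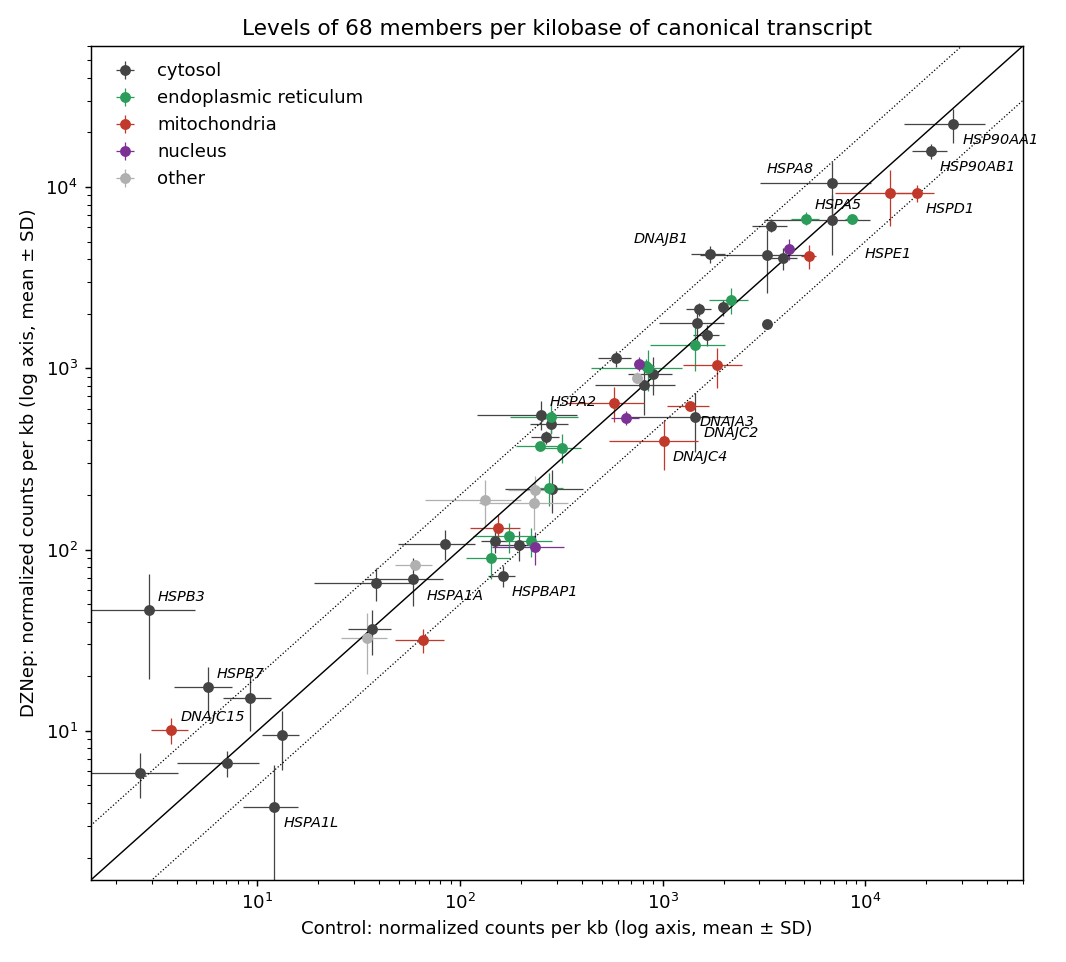
Normalized counts per kilobase of canonical transcript of the 68 members in Control (x) and DZNep (y), both on log axes (points are means of 4 libraries, bars ± SD cut short at the axis where the SD nears the mean). The solid line marks equal levels and the dotted lines a factor of 2. Most members lie between the dotted lines, the mitochondrial members (red) mostly under the solid line, and the members farthest from it, such as HSPB3, have low levels.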

How the data were processed

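RNAseq was measured in 8 HEK293T libraries, 4 Control and 4 DZNep, grouped by their titles. The submitters' processing notes name Trimmomatic 0.36, STAR 2.5.2b, Subread 1.5.2 (featureCounts), DESeq2 and GRCh38. The authors trimmed the reads, mapped them and counted unique exonic reads per gene, and they deposited raw counts for 57500 genes. They also deposited a signal in normalized counts for 19118 genes. The size factor of each library was taken as its raw sum over its normalized sum across these genes. Annotation release and strandedness are not given in the sources used here, so overlapping genes are uncertain. Members, gene lists and compartments were chosen with earlier results of these data known, and compartments and roles come from general knowledge. Symbols, coordinates and exon overlaps are from GENCODE's annotation of GRCh38, and promoters from RefSeq.

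Raw counts were tested in R 4.3.3 with edgeR 4.0.16 (quasi-likelihood test, TMM, filterByExpr, 19171 genes, no block), after tests on simulated data. Calls needed an adjusted p under 0.05 and a log2 fold change beyond 1 in either direction. DESeq2 1.42.0, limma 3.58.1 on log2 of the normalized count with a pseudocount of 1 or 10, other scalings and filters, a replicate block, and leaving out each library were the alternatives. Fits on replicates 1 and 4 and on replicates 2 and 3 alone were added after seeing the data. Control and DZNep libraries that share a replicate number also shared their departures from the group mean (correlations of 0.136, 0.492, 0.429 and 0.673 for numbers 1 to 4), although number 1 did not correlate best with its own partner. Every correlation was over 0.1, so values with the block are printed for most members whose result the block changes. The calls themselves are from the fit without it. DNAJB5 (-0.45 ± 0.17, edgeR adjusted p = 0.0597, and 0.0148 with the block) and DNAJC18 (-0.35 ± 0.19, edgeR adjusted p = 0.184, and 0.0179 with the block) also passed with the block but not without it. In the other chaperone lists, values with the block are given for HSF2 alone, though the block changed the result of other genes too. Depth was 25043058 to 44902779 counts per library, and 3 counts were the detection floor. Libraries of a group differed by more than sampling noise (chi-square per degree of freedom of at least 23.9). Genes named were the called members, all HSP90, HSP70, HSP110, HSP60 and HSP10 genes, the most abundant and the extreme members of each family or compartment, and called genes of the lists. Further genes were chosen with their values in view. Protein sequences were not analysed here. The values of 1 list gene are not reported here.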

Additional observations from a re-analysis of the deposited data

Results flagged for a closer look

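In 6 of 136 groups of 4 libraries, 1 for each member and treatment, a single library stood apart from the other 3 by Dixon's criterion, and chance gives about 1 in 20. DNAJC25, a membrane J protein, had 746 normalized counts in Control replicate 4, where the others had 454 to 479, and 625 in DZNep replicate 4, where the others had 428 to 451. HSPA2 had 1102 in Control replicate 4, against 418 to 496 in the others, and its log2 fold change was 1.54 without that library. HSPD1 had 53145 in Control replicate 2, against 35249 to 37868, and its log2 fold change was -0.82 without it. DNAJB12 had 3410 in DZNep replicate 4, against 2880 to 2938, and DNAJB4 had 1194 in the same library, against 1475 to 1525. Of these 6 values, 5 are from replicate 4 of a group.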

How the results depend on the processing

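Of the alternatives, the replicate block moved the members past the adjusted p alone from 13 to 21 higher and from 14 to 22 lower, and it changed the call by both thresholds only for DNAJB7, which was added. The shares of all genes with the block at the adjusted p alone were not counted. Counts of members called stayed within a factor of 1.5 under every alternative: without 1 library, 5 to 6 were higher and 6 to 9 lower, and 10 to 14 and 11 to 14 at the adjusted p alone. In the other chaperone lists, the genes called higher went from 1 to 2 by library sizes alone, with limma at either pseudocount or on replicates 2 and 3 alone, and to 4 on replicates 1 and 4 alone; without 1 library, 1 to 2 were higher and 2 to 5 lower. Of the 27 members past the adjusted p, 18 passed it without any 1 library.

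Signs turned for 14 members, none of them called. Of these, DNAJC1, DNAJC7, DNAJC11, DNAJC12, DNAJC25 and DNAJC27 turned only without 1 library or on replicates 2 and 3 alone, and HSPB9 also by library sizes and on replicates 1 and 4 alone. The others were HSPH1 (main -0.02; DESeq2 0.0065, median-ratio factors 0.0064, library sizes 0.045, block 0.023, limma 0.053 at either pseudocount, replicates 1 and 4 alone 0.33, and -0.26 to 0.28 without 1 library), HSPB1 (main -0.09; library sizes 0.023, block 0.015, limma 0.043 at either pseudocount, replicates 2 and 3 alone 0.35, and -0.34 to 0.26 without 1 library), HSPA6 (main -0.11; limma with pseudocount 1 gave 0.013, replicates 2 and 3 alone 0.14, and -0.38 to 0.14), HSPA13 (main 0.22; replicates 2 and 3 alone -0.041, and -0.0088 to 0.43 without 1 library), HSPA1A (main 0.21; -0.0039 to 0.46 without 1 library), DNAJB11 (main 0.11; -0.00091 to 0.21 without 1 library) and DNAJB6 (main 0.10; -0.045 on replicates 2 and 3 alone). The cause was not tested. Depth limits HSPB3, HSPA1L, HSPA6, DNAJB7 and other members with under 50 normalized counts.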

Other observations

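Some genes with names like those of members lie outside the rule by their symbol or gene type, among them pseudogenes, a readthrough gene and an unrelated gene. HSP90B2P (ENSG00000259706, chr15:99257632-99260015), a processed pseudogene of GRP94, had 13.9, 7.14, 9.85 and 19.3 normalized counts in Control replicates 1 to 4 and 222, 230.3, 251 and 199 in DZNep, a log2 fold change of 4.16 ± 0.30 (edgeR adjusted p = 1.17e-05), while HSP90B1 itself was lower. HSPD1P4, a pseudogene of HSP60, went from 60.2 ± 20.9 to 19.0 ± 7.04 (SD, n = 4; -1.69 ± 0.37, edgeR adjusted p = 0.00464), and DNAJB6P1 from 59.4 ± 17.6 to 132 ± 39.4 (1.12 ± 0.29, edgeR adjusted p = 0.0109). Reads of a pseudogene and of its parent can be split between them. The readthrough gene HSPE1-MOB4, which shares exons with HSPE1, had 12.3, 20.5, 6.27 and 8.59 normalized counts in Control and 33.6, 58.8, 32.0 and 32.6 in DZNep (1.68 ± 0.41, edgeR adjusted p = 0.00869), opposite in sign to HSPE1. The divergent transcript DNAJC3-DT, next to DNAJC3, fell from 179 ± 54.2 to 64.7 ± 13.1 (-1.50 ± 0.27, edgeR adjusted p = 0.00152), while DNAJC3 had a log2 fold change of 0.18 ± 0.20. HSPG2, the basement membrane protein perlecan, which only shares the letters, fell with a log2 fold change of -1.67 ± 0.42 (edgeR adjusted p = 0.0102).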
